A study of Rattus norvegicus with 9 samples.

Results

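The genes described here are the potassium channel genes of the rat array, taken as all genes whose symbol begins with Kcn. The array held 92 such genes among 19293 gene symbols, and each was read from 1 probe, the one with the highest mean log2 signal over the 9 arrays. Of the 92, 85 were tested, since every array of 1 group or more had them well above background. The other 7, Kcna10, Kcne3, Kcng4, Kcnj1, Kcnj2, Kcnj15, and Kcnk18, were not. The arrays came from the infarcted hemisphere of male Sprague Dawley rats at day 14, with 3 rats a group. The Sham group was operated on without occlusion and was given solvent. The I/R group underwent occlusion of the right middle cerebral artery followed by reperfusion, and whether it was given solvent is not given in the sources used here. The DHI group underwent the same injury and was given Danhong injection, a Chinese herbal preparation of Salvia and safflower, by tail vein daily up to the day of sampling. The comparison of I/R with Sham asks what the injury does to these genes 14 days later, and that of DHI with I/R asks what changes with treatment.

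Potassium channels set the resting potential of a cell and end its action potentials. Voltage-gated members (Kcna to Kcnd, Kcnh, and Kcnq) open on depolarization, and silent subunits (Kcnf, Kcng, Kcns, and Kcnv) form no channel alone but join Kcnb subunits and change their gating. Inward rectifiers (Kcnj) and tandem-pore channels (Kcnk) carry the current of cells at rest, and Kcnma1, Kcnn, and Kcnt channels respond to intracellular calcium or sodium. Kcnab, Kcne, Kcnip, and Kcnmb genes encode auxiliary subunits. Most of the family is used by neurons. Astrocytes clear extracellular potassium through Kcnj10 channels, and microglia and leukocytes use Kcnn4, Kcna3, Kcnk6, and Kcnk13 to hold the negative potential that their calcium entry needs.

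Levels are log2 processed signals less the 75th percentile of that array, so that 0 is a probe at that percentile, and differences are log2 fold changes. A gene was called where the unadjusted p was under 0.05 and the fold change (FC) was over 1.5. The adjusted p is the Benjamini-Hochberg value over all 23747 probes tested. The share of spots well above background was 75.2% to 78.9% per array, and 3 arrays a group limit the precision. The Sham and I/R arrays lay on 1 slide and the DHI arrays on another, so slide and treatment cannot be told apart. One DHI array, DHI 1, stood with the I/R arrays. Over the tested channel genes, on an axis where the Sham mean is 0 and the I/R mean is 1, the Sham arrays lay at 0.10, -0.09, and 0.02, the I/R arrays at 1.39, 1.10, and 0.53, and the DHI arrays at 0.89, -0.08, and 0.15, each array placed against means that left it out. Whether DHI 1 differs by its tissue, its rat, or its label cannot be settled from these files, and every value of the DHI group rests on it. The counts and the main changes of the DHI group are therefore also given without DHI 1.

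In I/R versus Sham, 56 of the 85 channel genes fell, 7 rose, and 22 were not called. Over the 15595 gene symbols tested on the same rule, 22.4% were called lower and 22.4% were called higher. With the adjusted p, 39 channel genes fell and 5 rose, where 15.2% of all symbols were lower and 17.7% were higher. The median log2 fold change of the channel genes was -1.75, and that of all symbols was -0.08. Of the 50 tested channels listed as neuronal, 47 fell, 1 rose (Kcnk10), and Kcnn2 and Kcnn3 were not called. Of the 4 tested channels listed as microglial or leukocytic, 3 rose and Kcna3 was not called. Kcnj10 and Kcnk1 fell among the 3 astroglial channels, and none of the 5 tested vascular, choroid plexus, and epithelial channels was called. Among the 23 tested genes on none of these lists, 7 fell and 3 rose. They include Kcnq5l, since the neuronal list holds the name Kcnq5 and the array name did not match it.

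**Figure D1:**
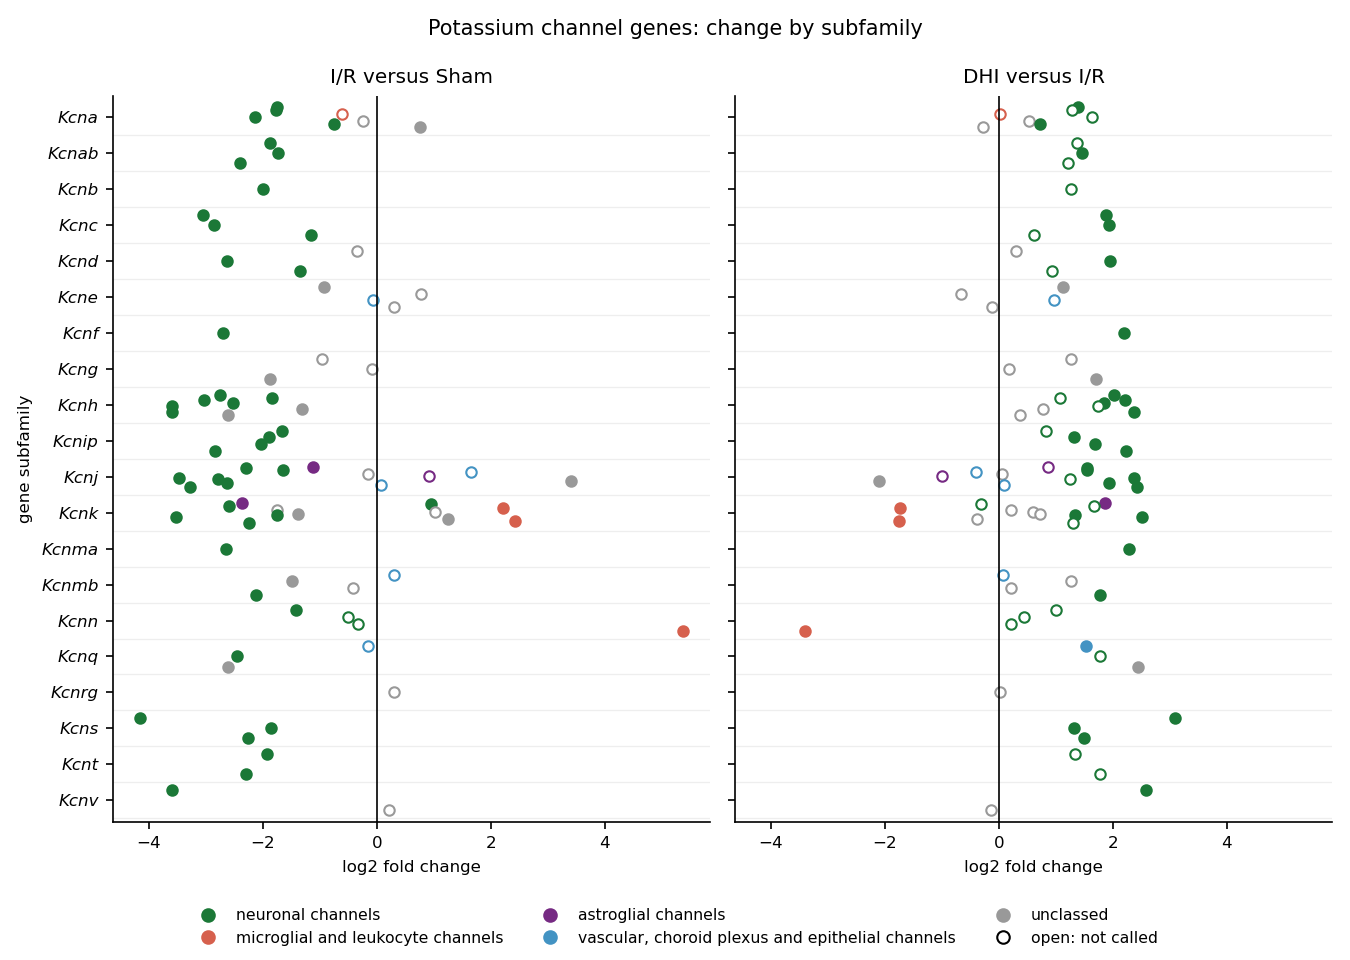
Log2 fold change (horizontal axis) of 81 of the 85 tested potassium channel genes by subfamily (vertical axis), I/R versus Sham on the left and DHI versus I/R on the right. Filled points were called at p under 0.05 and FC over 1.5, open points were not, and colour marks the class. Most neuronal channels lie left of 0 on the left and right of 0 on the right, and Kcnn4, Kcnk6, Kcnk13, and Kcnj5 lie the other way in both. Both panels use the same I/R arrays.

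The neuronal channels moved beside the markers of neurons. All 10 neuron markers, such as Snap25 and Nefl, fell in I/R, and their summed level, relative to the 75th percentile, was 76.2 to 82.7 in Sham, 7.56 to 37.9 in I/R, and 25.0 to 81.8 in DHI. The median neuronal channel stood at -3.12, -2.48, and -1.25 from its Sham mean on the 3 I/R arrays, where the median neuron marker stood at -3.54, -2.57, and -1.11. I/R 1 was lowest and I/R 3 was nearest to Sham for both. In whole tissue, fewer cells of a type and less RNA per cell cannot be told apart. The summed markers of striatal neurons differed within groups, at 45.9, 7.79, and 8.72 in Sham, 2.44, 4.03, and 4.28 in I/R, and 3.41, 10.2, and 42.0 in DHI, so that Sham 1 and DHI 3 stood far above the rest. The part of the neuron content, or of the region sampled, in the fall of the channels was not tested.

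**Figure D2:**
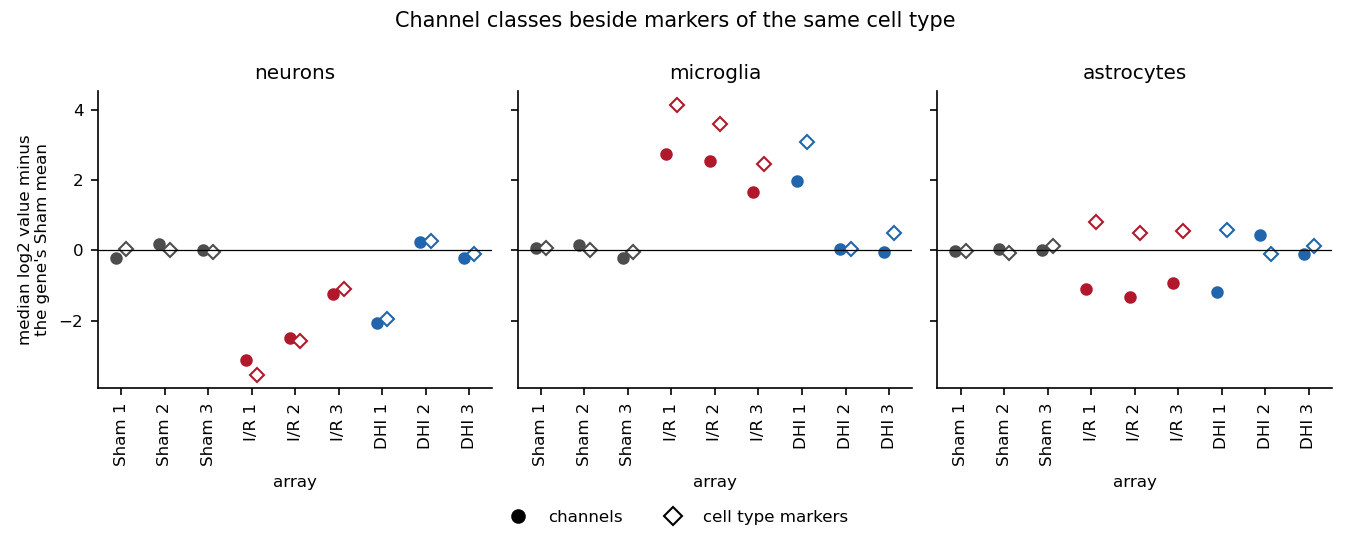
Median over a list's genes of the log2 value minus the gene's Sham mean (vertical axis) on each of the 9 arrays (horizontal axis). Filled circles are channel classes (50 neuronal, 4 microglial and leukocytic, 3 astroglial genes) and open diamonds are markers of the same cell type (10, 8, and 7 genes). DHI 1 lies with the I/R arrays in every panel, and the medians of the astroglial channels and astrocyte markers lie on opposite sides of 0 on the I/R arrays. The astroglial median on each I/R array is the value of Kcnj10, whose probe was dim. Kcnk1 lies below it, and Kcnj16 lies above 0.

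Among the silent subunits, Kcns1, whose product modulates Kcnb channels, had the largest fall among the channels that were well above background on all Sham and I/R arrays. Its levels were -1.36, -0.56 and -0.89 on the Sham arrays, -5.41, -5.39 and -4.46 on the I/R arrays and -4.18, 0.24 and -2.04 on the DHI arrays. The I/R arrays did not overlap the Sham arrays, and the log2 fold change was -4.15 ± 0.95 (SE, adjusted p = 0.0396). Kcns2 (-1.86) and Kcns3 (-2.27) fell too, so that all 3 Kcns genes were called. Kcnv1, a silent subunit that suppresses Kcnb currents, stood at 1.18, 1.84 and 1.52 on the Sham arrays, -2.76, -2.75 and -0.72 on the I/R arrays and -1.03, 1.60 and 0.95 on the DHI arrays. Its fall in I/R was -3.59 ± 0.76 (SE, adjusted p = 0.0396), and I/R 3 was the I/R array nearest to Sham. Kcnf1 fell by 2.70 and Kcng3 by 1.87 (adjusted p = 0.0696, limma) on the log2 scale. Kcng1 (-0.97), Kcng2 (-0.08), and Kcnv2 (0.22), which is best known from photoreceptors, were not called. Both probes of Kcng1 were tested and had opposite signs, neither called.

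Kcnb2, a partner of the silent subunits that carries the delayed rectifier of the soma and dendrites, changed by -1.99 ± 0.64 (SE, adjusted p = 0.048) in I/R. Kcnc channels deactivate quickly and let fast-spiking interneurons fire at high rates. Kcnc1 stood at -1.25, -0.59 and -0.63 on the Sham arrays, -5.11, -4.15 and -2.36 on the I/R arrays and -3.45, -1.20 and -1.31 on the DHI arrays, a change of -3.05 ± 0.79 (SE, adjusted p = 0.0396) in I/R. Kcnc2, which is prominent in parvalbumin interneurons, stood at 0.40, 0.84 and 0.76 on the Sham arrays, -2.76, -3.09 and -0.71 on the I/R arrays and -1.46, 0.68 and -0.01 on the DHI arrays. It changed by -2.85 ± 0.71 (SE, adjusted p = 0.0396), and 2 further Kcnc2 probes read -2.95 and -2.36. For Kcnc1 and Kcnc2 no I/R array reached the Sham range. Kcnc4 fell by 1.15. Kcnd2, the main A-type channel of dendrites, fell by 2.63 and Kcnd3 by 1.36 (adjusted p = 0.0881, limma), while Kcnd1 (-0.35) was not called.

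Among the Shaker channels, Kcna1 (-1.75 ± 0.32 (SE, adjusted p = 0.0396)), Kcna2 (-1.76), Kcna4 (-2.13), and Kcna6 (-0.76), subunits found on axons and terminals, fell in I/R. Of these 4, only Kcna1 passed with the adjusted p, and a second Kcna6 probe (-0.40) was not called. Kcna1 had I/R levels of 0.86, 1.15 and 1.26 against Sham levels of 2.77, 3.03 and 2.72. Kcna5 (-0.24) was not called. Kcna7, known from muscle, was called higher by 1 probe (0.75 ± 0.30 (SE, adjusted p = 0.0827)), with levels of -5.40, -5.37 and -5.14 on the Sham arrays, -3.94, -4.73 and -4.99 on the I/R arrays and -4.42, -4.90 and -5.16 on the DHI arrays. Its dimmer probe was on no I/R array well above background and lay at least 3.10-fold lower there than in Sham, so the 2 probes had opposite signs. Of 21 alternatives, 12 ended the call of Kcna7 and 1 turned its sign.

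All 8 Kcnh genes, which encode the EAG, ERG, and ELK channels, fell, with a median of -2.68, and 6 passed with the adjusted p. Kcnh7 (an ERG channel) stood at -2.47, -1.65 and -2.08 on the Sham arrays, -6.50, -5.85 and -4.63 on the I/R arrays and -5.65, -1.44 and -2.78 on the DHI arrays, and changed by -3.59 ± 0.98 (SE, adjusted p = 0.0404) in I/R. Kcnh3, an ELK channel of the forebrain that restrains firing near threshold, stood at 2.99, 3.37 and 3.01 on the Sham arrays, -0.69, -0.73 and 1.68 on the I/R arrays and 0.65, 3.48 and 2.77 on the DHI arrays. It changed by -3.04 ± 0.84 (SE, adjusted p = 0.0404), and its second probe by -2.95. Kcnh5, an EAG channel, was well above background on all 3 Sham arrays and on no I/R array. Its levels were -5.17, -4.76 and -5.09 on the Sham arrays, -8.59, -8.64 and -8.55 on the I/R arrays and -8.85, -5.10 and -6.61 on the DHI arrays, and it was at least 11.4-fold lower in I/R than in Sham. Each such bound, here and elsewhere, sets the mean of the brighter group against a reference averaged over the arrays of the dim group. On each of those arrays the reference is the lowest signal well above background, or the probe's own signal where that is higher. Kcnh8 (an ELK channel) was well above background only on the Sham arrays, at -6.98, -6.57 and -6.93, and was at least 3.30-fold lower in I/R. The levels of the remaining 4 changed by -2.75 (Kcnh1), -2.52 (Kcnh4), -1.84 (Kcnh2), and -1.31 (Kcnh6).

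The promoters of a few members are shown because these genes were among those with the largest falls (Kcns1 and Kcnh7) or moved the other way with the microglial channels (Kcnj5 and Kcnk13). They are the 250 bases before the RefSeq start in the GRCr8 build, a newer build than the rn4 coordinates of the probes, at chr3:173262347-173262596 (minus strand), chr3:68230672-68230921 (minus), chr8:39011097-39011346 (minus), and chr6:124971559-124971808 (plus). Capitals mark 2 motifs on either strand, GGGCGG (the GC box bound by Sp factors) and GAGGAAGT (an ETS site of the kind bound by PU.1, the factor of myeloid cells).
Kcns1: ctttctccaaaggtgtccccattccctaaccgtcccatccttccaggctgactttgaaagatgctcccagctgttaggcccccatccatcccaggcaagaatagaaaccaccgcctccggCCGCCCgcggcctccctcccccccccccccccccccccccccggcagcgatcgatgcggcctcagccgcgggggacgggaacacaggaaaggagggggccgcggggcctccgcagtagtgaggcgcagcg
Kcnh7: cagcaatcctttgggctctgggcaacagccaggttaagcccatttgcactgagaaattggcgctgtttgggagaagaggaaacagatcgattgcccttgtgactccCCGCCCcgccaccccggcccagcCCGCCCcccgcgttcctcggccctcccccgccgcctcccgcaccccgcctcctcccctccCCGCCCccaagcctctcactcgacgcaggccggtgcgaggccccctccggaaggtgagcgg
Kcnj5: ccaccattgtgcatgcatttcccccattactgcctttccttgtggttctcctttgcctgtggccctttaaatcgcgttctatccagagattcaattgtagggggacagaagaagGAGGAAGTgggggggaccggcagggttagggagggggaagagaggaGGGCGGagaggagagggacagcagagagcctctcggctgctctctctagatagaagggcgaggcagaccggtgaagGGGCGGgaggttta
Kcnk13: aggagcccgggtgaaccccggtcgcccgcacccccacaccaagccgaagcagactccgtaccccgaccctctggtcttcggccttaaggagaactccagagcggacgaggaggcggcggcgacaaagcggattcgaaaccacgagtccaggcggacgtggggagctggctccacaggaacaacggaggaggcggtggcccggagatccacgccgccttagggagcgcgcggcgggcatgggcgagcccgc
The RefSeq table held a promoter for 60 of the 92 genes. Over the full 300 bases from 250 before to 50 after the start, 33.1% of all 33469 promoters held GGGCGG and 2.42% held GAGGAAGT. Those 60 held 36 of the 56 genes that fell in I/R and 3 of the 7 that rose (Kcnj5, Kcnk5, and Kcnk13). Kcnn4 and Kcnk6 were not among them. GGGCGG was found for 31 of the 60 channel genes, for 22 of these 36, and for 2 of these 3 (Kcnj5 and Kcnk5). A channel gene was counted if any of its promoters held the motif, whereas the shares over all promoters count each promoter. GAGGAAGT was found for 3 of the 60, namely Kcnj2, Kcnj5, and Kcnj14, and Kcnj5 was the only one of these called. The motifs do not overlap in the Kcnj5 promoter. The Kcnk13 promoter held neither.

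Of the Kcnq genes, Kcnq3 (-2.46, adjusted p = 0.0593, limma), a subunit of the M-current that damps repetitive firing, fell in I/R, as did the gene named Kcnq5l (-2.62 ± 0.64 (SE, adjusted p = 0.0396)). Kcnma1, the pore of the large-conductance calcium-activated channel, fell by 2.64, and 2 further probes read -2.13 and -1.22. Kcnt1 (-1.92) and Kcnt2 (-2.31), the sodium-activated channels, fell, and 1 of the 2 passed with the adjusted p. The small-conductance channels changed less. Kcnn1 fell by 1.42 (adjusted p = 0.0618, limma), while Kcnn2 (-0.52) and Kcnn3 (-0.33), which shape the afterhyperpolarization, were not called.

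Among the inward rectifiers, the neuronal G protein-gated subunits all fell, namely Kcnj3, Kcnj6 (-2.63), and Kcnj9, which open on signals such as GABA-B and serotonin receptors. Kcnj3 stood at 1.84, 2.66 and 2.25 on the Sham arrays, -2.43, -1.22 and -0.03 on the I/R arrays and -0.62, 2.81 and 1.26 on the DHI arrays, a change of -3.47 ± 0.88 (SE, adjusted p = 0.0396) in I/R. Kcnj9, at -0.57, -0.09 and -0.63 on the Sham arrays, -4.79, -4.08 and -2.28 on the I/R arrays and -2.87, 0.26 and -1.27 on the DHI arrays, changed by -3.28 ± 0.85 (SE, adjusted p = 0.0396). In both, the I/R arrays lay below all Sham arrays. Kcnj4 (-2.78) and Kcnj12 (-1.65), strong rectifiers, fell. So did Kcnj11 (-2.29), the pore of the ATP-sensitive channel of neurons. Kcnj14 (-0.16) was not called. Of the 7 Kcnj genes called lower, Kcnj10 included, 4 passed with the adjusted p.

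Kcnj5, the fourth G protein-gated subunit and best known from the heart atrium and adrenal cortex, went the other way. Its probe at chr8:31934385-31934444 (rn4) read -2.93, -3.76 and -3.09 on the Sham arrays, 0.91, 0.28 and -0.78 on the I/R arrays and -0.27, -3.17 and -2.44 on the DHI arrays. All 3 I/R arrays lay above all Sham arrays, and the rise was 3.40 ± 0.74 (SE, adjusted p = 0.0396). A dimmer second probe was on no Sham array well above background and lay at least 5.20-fold higher in I/R. Kcnj5 was on none of the class lists, and it was the second largest rise of the family.

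Most tandem-pore channels called fell in I/R. Kcnk4, a mechanically gated leak channel held at nodes of Ranvier, stood at -1.91, -1.31 and -1.40 on the Sham arrays, -5.56, -5.91 and -3.71 on the I/R arrays and -4.29, -1.22 and -2.13 on the DHI arrays. It changed by -3.52 ± 0.82 (SE, adjusted p = 0.0396) in I/R. Kcnk2 (-1.39), a related channel of neurons and glia, Kcnk3 (-1.76), an acid-sensitive leak channel, and Kcnk12 (-2.60) fell as well. Kcnk9, a second acid-sensitive channel, was on no I/R array well above background and lay at least 3.70-fold lower there than in Sham. Kcnk10, the remaining mechanically gated member, was the one neuronal channel called higher. It stood at -5.23, -5.43 and -5.08 on the Sham arrays, -5.10, -4.14 and -3.67 on the I/R arrays and -4.14, -5.09 and -4.63 on the DHI arrays, its Sham and I/R arrays overlapped, its change was 0.94 ± 0.38 (SE, adjusted p = 0.0826), and its second probe (0.76) was not called. Of 21 alternatives, 14 ended its call. Kcnk5, an alkaline-activated channel known from kidney and T cells, rose by 1.25 ± 0.24 (SE, adjusted p = 0.0396), with levels of -3.70, -4.14 and -3.79 on the Sham arrays, -2.46, -2.42 and -3.0 on the I/R arrays and -2.68, -3.32 and -3.05 on the DHI arrays. No I/R array fell within its Sham range. Kcnk15 (-1.75) and Kcnk16 (1.02) were not called.

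Of the auxiliary subunits, all Kcnab and Kcnip genes fell, while only 2 of 4 tested Kcnmb and 1 of 4 tested Kcne genes did. The 3 Kcnab genes, whose products bind Kcna channels, decreased by 1.73 (Kcnab2) to 2.41 (Kcnab3), and 2 passed with the adjusted p. The 4 Kcnip genes, the calcium-binding partners of Kcnd channels, decreased by 1.67 (Kcnip1) to 2.85 (Kcnip4), and each passed with the adjusted p. Kcnmb4, the neuronal beta subunit of Kcnma1, changed by -2.12 ± 0.64 (SE, adjusted p = 0.0433), and Kcnmb2 by -1.48 (adjusted p = 0.069, limma). Kcnmb3 (-0.42) was not called. Of the Kcne genes, Kcne1 (-0.93, adjusted p = 0.0973, limma) fell, and Kcne1l (0.78, Kcne5 in RefSeq) and Kcne4 (0.30) were not called. Kcnrg, whose product is a soluble regulator of channel assembly and not a channel, gave 0.30 and was not called.

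**Figure D3:**
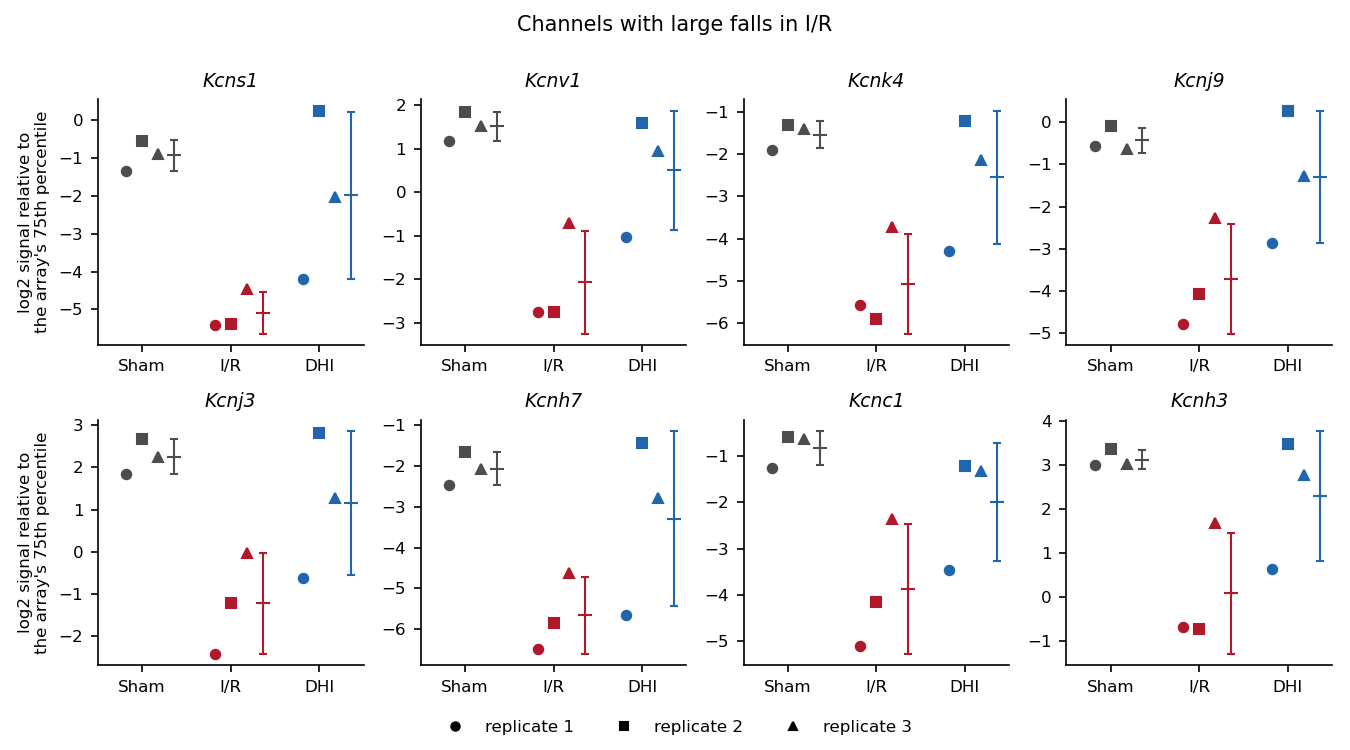
Log2 signal relative to the array's 75th percentile (vertical axes, 1 scale per panel) of 8 of the 10 channels with the largest falls in I/R, by group. Symbols are replicates 1 to 3, and the bar beside them is the mean with its SD. In every panel the I/R arrays lie below the Sham arrays, DHI 1 lies near them, and DHI 2 and DHI 3 lie above DHI 1.

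Of the microglial and leukocytic channels, Kcnn4, the intermediate-conductance calcium-activated channel of leukocytes and activated microglia, had the largest measured change of the family. Its probe (chr1:79625914-79627647, rn4) read -6.20, -6.17 and -7.0 on the Sham arrays, -0.52, -0.62 and -2.13 on the I/R arrays and -1.63, -6.04 and -5.80 on the DHI arrays. The rise in I/R was 5.37 ± 1.10 (SE, adjusted p = 0.0396), a fold change of 41.3, and a second probe gave 4.91. Kcnk6, a weak inward rectifier of the tandem-pore family, read -2.90, -2.46 and -3.05 on the Sham arrays, 0.06, -0.28 and -0.90 on the I/R arrays and -0.59, -2.67 and -3.11 on the DHI arrays, a rise of 2.43 ± 0.61 (SE, adjusted p = 0.0396). Kcnk13, which carries the resting potassium current of microglia, read -0.52, -1.22 and -1.14 on the Sham arrays, 1.67, 1.59 and 0.46 on the I/R arrays and 0.75, -1.45 and -0.75 on the DHI arrays. It rose by 2.20 ± 0.57 (SE, adjusted p = 0.0396), and a dimmer probe gave 0.82, also called. For these 3 genes no I/R array overlapped a Sham array.

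Kcna3, a channel of T cells and microglia, was not called. It stood at -5.43, -5.19 and -5.10 on the Sham arrays, -5.72, -5.83 and -6.02 on the I/R arrays and -6.51, -5.31 and -5.72 on the DHI arrays. The I/R arrays lay below the Sham arrays, and the difference of -0.62 ± 0.29 (SE, adjusted p = 0.121) was not called. Under 7 of the alternatives it was called lower, and under none was it called higher. Kcnj2, the inward rectifier of resting microglia, was above background on 1 Sham array, 1 I/R array, and no DHI array, and was not tested. Markers of microglia and macrophages moved beside the class. Of 8, 7 rose in I/R, and Cx3cr1 (-1.0) was not called. Their summed level was 8.84 to 10.8 in Sham, 39.9 to 115 in I/R, and 12.1 to 60.2 in DHI. Of 4 tested T cell markers, 3 rose as well, namely Cd3g (2.71), Cd3d (0.59), and Cd8a, which was on no Sham array well above background and lay at least 130.5-fold higher in I/R. Cd3e was not called. Of the 5 markers on this list, 2 were well above background on all 9 arrays. The list summed to 0.142 to 0.178 in Sham and 0.422 to 0.771 in I/R. The part of these cells in the rise was not tested.

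**Figure D4:**
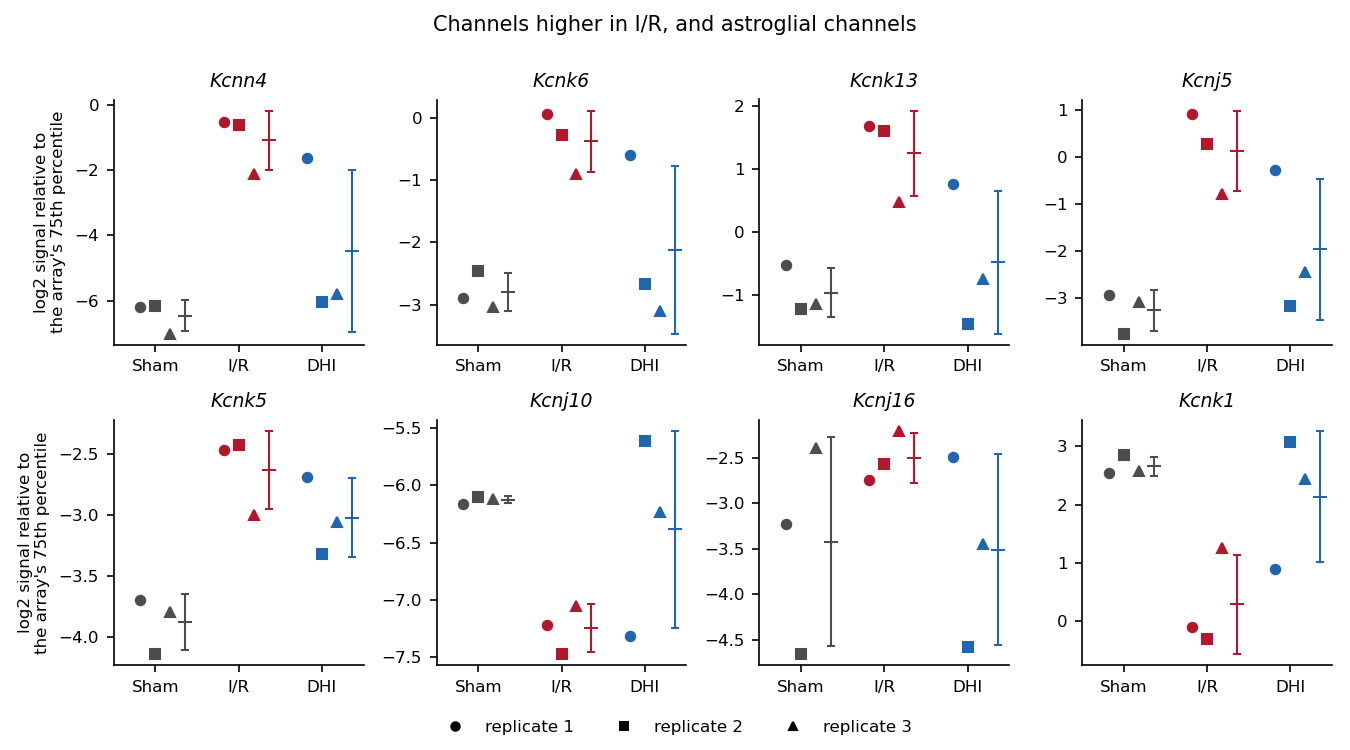
Log2 signal relative to the array's 75th percentile (vertical axes, 1 scale per panel) of Kcnn4, Kcnk6, Kcnk13, Kcnj5, and Kcnk5, and of the astroglial Kcnj10, Kcnj16, and Kcnk1, by group. Symbols are replicates 1 to 3, and the bar beside them is the mean with its SD. The first 5 are higher on all I/R arrays than on all Sham arrays, and Kcnj10 and Kcnk1 are lower.

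Of the astroglial channels, Kcnj10, the weak inward rectifier through which astrocytes take up potassium, stood at -6.16, -6.10 and -6.12 on the Sham arrays, -7.21, -7.47 and -7.05 on the I/R arrays and -7.31, -5.61 and -6.23 on the DHI arrays. It changed in I/R by -1.12 ± 0.38 (SE, adjusted p = 0.0536). The probe was dim, and was well above background on 2 of the 3 I/R arrays. Without I/R 2 the change was -1.01 and was not called. Kcnj16, which joins Kcnj10, stood at -3.23, -4.66 and -2.39 on the Sham arrays, -2.74, -2.57 and -2.21 on the I/R arrays and -2.49, -4.58 and -3.45 on the DHI arrays, and its Sham arrays spread over more than the difference (0.92 ± 0.65 (SE, adjusted p = 0.281), not called). Kcnk1, a tandem-pore channel of astrocytes that neurons also express, stood at 2.55, 2.85 and 2.58 on the Sham arrays, -0.10, -0.30 and 1.26 on the I/R arrays and 0.89, 3.08 and 2.45 on the DHI arrays. It changed by -2.37 ± 0.59 (SE, adjusted p = 0.0396). Most markers of astrocytes went the other way from Kcnj10 and Kcnk1. Of 7, 4 rose in I/R, among them Gfap (3.63) and Aqp4 (1.47), the water channel of the same endfeet as Kcnj10, and Slc1a2, the main glutamate transporter, fell (-1.12). The summed astrocyte markers were 63.1 to 70.8 in Sham and 85.6 to 118 in I/R.

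The 5 tested vascular, choroid plexus, and epithelial channels had no call in I/R versus Sham. Kcnj8, the ATP-sensitive pore of pericytes, stood at -1.22, -1.36 and -1.63 on the Sham arrays, -1.01, -1.35 and -1.64 on the I/R arrays and -1.51, -1.14 and -1.06 on the DHI arrays, a difference of 0.07, and Kcnmb1, the smooth muscle beta subunit, gave 0.30 with levels of -6.94, -7.50 and -8.16 on the Sham arrays, -6.96, -7.12 and -7.62 on the I/R arrays and -7.39, -6.83 and -7.24 on the DHI arrays. Kcnj13, a channel of the choroid plexus, stood at -2.73, -3.0 and -3.56 on the Sham arrays, -2.37, -1.10 and -0.86 on the I/R arrays and 0.67, -3.64 and -2.55 on the DHI arrays, and Kcne2, an auxiliary subunit of the same epithelium, at -2.35, -1.95 and -2.60 on the Sham arrays, -3.26, -2.68 and -1.17 on the I/R arrays and 0.72, -2.75 and -2.18 on the DHI arrays. DHI 1 was the highest array for both. The summed choroid plexus markers were 0.353 to 1.05 in Sham, 1.10 to 93.3 in I/R, and 7.44 to 136 in DHI, and Ttr, the transthyretin made by this epithelium, read -0.65, -1.65 and -0.21 on the Sham arrays, -0.54, 0.19 and 6.53 on the I/R arrays and 7.05, 2.88 and 6.20 on the DHI arrays. Of the 4 tested plexus markers, Folr1 was called higher in I/R (4.51, adjusted p = 0.0419, limma) and 3 were not called. How much of the plexus was taken with the tissue was not tested as a source of these differences. Kcne3, Kcnj1, and Kcnj15, the other 3 on the list, were above background on at most 2 of the 9 arrays.

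**Figure D5:**
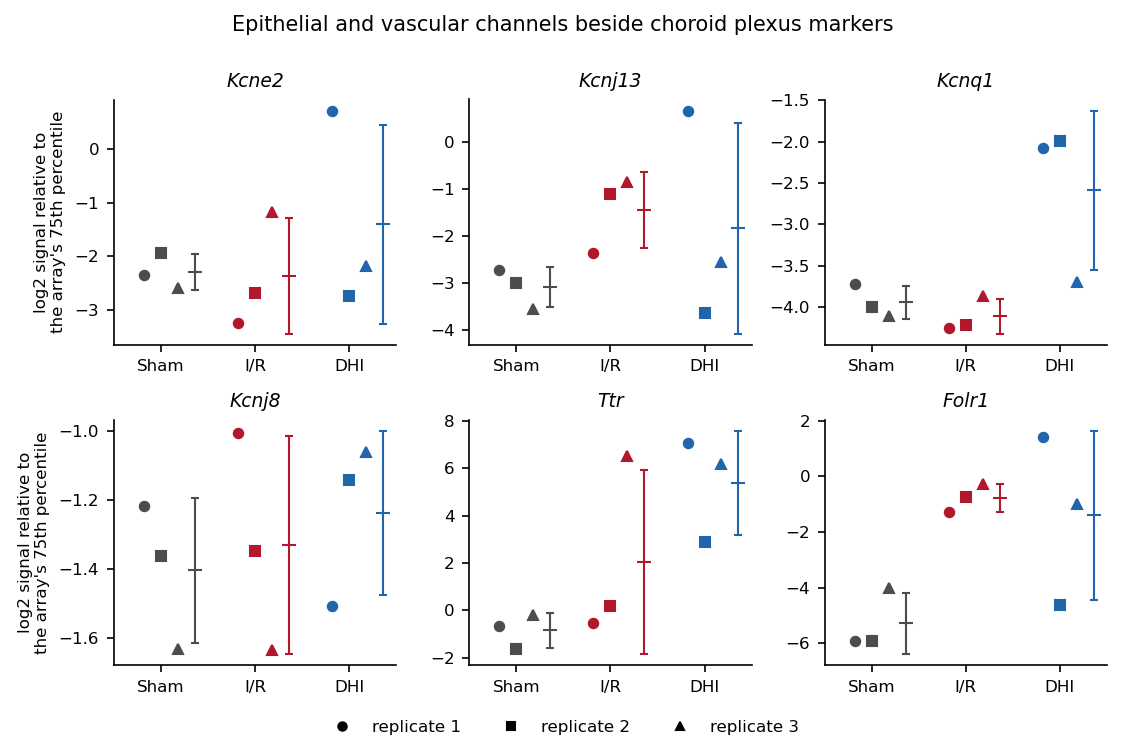
Log2 signal relative to the array's 75th percentile (vertical axes, 1 scale per panel) of the channels Kcne2, Kcnj13, Kcnq1, and Kcnj8 and the choroid plexus markers Ttr and Folr1, by group. Symbols are replicates 1 to 3, and the bar beside them is the mean with its SD. DHI 1 is the highest array for Kcne2, Kcnj13, Ttr, and Folr1, and Kcnq1 is high on DHI 1 and DHI 2.

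In DHI versus I/R, 35 of the 85 channel genes were called higher, 4 were called lower, and 46 were not called, where 10.8% of all symbols were higher and 12% were lower. No channel gene passed with the adjusted p (limma), and the methods' t-test called 3 higher and 0 lower. Over all 23747 probes, the t-test called 469, with 62.7% of these higher. The median log2 fold change was 1.27, against 0.08 over all symbols. Neuronal channels made up 30 of the 35. The other 5 were Kcnk1, Kcnq1, Kcnq5l, Kcng3, and Kcne1. Kcnq5l stands among these only because the neuronal list holds the name Kcnq5, which the array name did not match. The count rested on single arrays. It was 56 without DHI 1, 7 without DHI 2, and 12 without DHI 3. Leaving out an I/R array gave 10 (I/R 1), 8 (I/R 2), and 43 (I/R 3). Calls over all probes, in both directions together, moved as well. They went from 5211 to 10773 without DHI 1, 945 without DHI 2, and 1140 without DHI 3. Without I/R 1, I/R 2, and I/R 3 in turn they were 1392, 1671, and 7834. Without DHI 1, 47 of the 50 neuronal channels were higher, with a class median of 2.21. With no scaling between arrays, where the median of all probes moved from 0.10 to -0.36, the split was 11 higher and 7 lower. Of the 7436 probes called with that setting, 4.8% were higher.

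The largest rises were those of genes with large falls in the injury, in a comparison that shares the I/R arrays. Kcns1 rose by 3.09 ± 0.95 (SE, adjusted p = 0.196), and all 3 DHI arrays lay above all I/R arrays. Next came Kcnv1 (2.58 ± 0.76 (SE, adjusted p = 0.196)), Kcnk4 (2.51 ± 0.82 (SE, adjusted p = 0.196)), Kcnq5l (2.44 ± 0.64 (SE, adjusted p = 0.196)), and Kcnj9 (2.42 ± 0.85 (SE, adjusted p = 0.196)). Kcnq5l stood at -3.18, -3.24 and -3.48 on the Sham arrays, -6.94, -5.94 and -4.87 on the I/R arrays and -4.75, -2.65 and -3.02 on the DHI arrays, with no overlap of DHI and I/R. For Kcnv1, Kcnk4, and Kcnj9 DHI 1 lay within the range of the I/R arrays. The channels called higher covered all 3 Kcns genes, 3 of 4 Kcnip, 4 of 8 Kcnh, 5 of 12 Kcnj, and 3 of 12 Kcnk. Kcna1 (1.39 ± 0.32 (SE, adjusted p = 0.196)) had no overlap between the 2 groups. Without DHI 1 the rises were 4.19 (Kcns1), 3.35 (Kcnv1), 3.38 (Kcnk4), 3.08 (Kcnq5l), 3.21 (Kcnj9), and 1.76 (Kcna1), and each was called. DHI 1 was left out for lying with the I/R arrays, so larger rises were built into that fit.

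All 4 genes called lower had risen in the injury. Kcnn4 fell by 3.40 ± 1.10 (SE, adjusted p = 0.196), Kcnj5 by 2.10 ± 0.74 (SE, adjusted p = 0.196), Kcnk6 by 1.75 ± 0.61 (SE, adjusted p = 0.196), and Kcnk13 by 1.73 ± 0.57 (SE, adjusted p = 0.196) on the log2 scale. In each, DHI 1 lay with the I/R arrays and DHI 2 and DHI 3 lay near the Sham arrays. Without DHI 1 the changes were -4.83 (Kcnn4), -2.94 (Kcnj5), -2.51 (Kcnk6), and -2.35 (Kcnk13), and 5 of the 85 genes were called lower, these 4 and Kcnj13 (-1.65). In that fit 10773 of all 23806 probes were called, 58% of them higher. The number of channel genes called lower was 0 without DHI 2 and 1 without DHI 3. It was 2, 1, and 4 when I/R 1, I/R 2, and I/R 3 were left out in turn. All 4 had a negative sign in each of these. Kcnk5 (-0.39), Kcnk10 (-0.32), and Kcna7 (-0.27), the other 3 that rose in I/R, were not called. On DHI 1, DHI 2, and DHI 3 the median microglial and leukocytic channel stood at 1.96, 0.03, and -0.05 from its Sham mean, and the median microglial marker stood at 3.07, 0.03, and 0.50. The median neuronal channel stood at -2.06, 0.23, and -0.22, and the median neuron marker at -1.97, 0.27, and -0.11. Whether the 4 falls and 35 rises reflect the mix of cells was not tested.

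Kcnq1, an epithelial and cardiac channel that pairs with Kcne subunits, was the one channel on the vascular and epithelial list called in DHI. It stood at -3.72, -4.0 and -4.11 on the Sham arrays, -4.25, -4.21 and -3.87 on the I/R arrays and -2.07, -1.99 and -3.70 on the DHI arrays. It was higher on DHI 1 and DHI 2 and nearer to the other groups on DHI 3, with a log2 fold change of 1.52 ± 0.43 (SE, adjusted p = 0.196) against I/R. A second Kcnq1 probe gave 0.15 and was not called. Of the astroglial channels, Kcnk1 rose (1.85 ± 0.59 (SE, adjusted p = 0.196)), while Kcnj10 (0.86) and Kcnj16 (-1.0) were not called. Without DHI 1 Kcnq1 (1.26) and Kcnk1 (2.48) were still called, and Kcnj10 was called higher, at 1.32.

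In DHI versus Sham, 4 of the 85 genes were called, 2 higher and 2 lower, where 2.61% of all symbols were higher and 1.14% were lower, and none passed with the adjusted p (limma). Kcnk5 was higher by 0.86 ± 0.24 (SE, adjusted p = 0.709), and all DHI arrays lay above all Sham arrays. Kcnq1 was higher by 1.36 ± 0.43 (SE, adjusted p = 0.709). Without DHI 1 both were called, at 0.69 (Kcnk5) and 1.10 (Kcnq1). The second Kcnq1 probe, well above background on all 9 arrays, gave 0.11 against Sham with DHI 1 included and was not called. Kcnh8 was on no DHI array well above background, and lay at least 2.93-fold lower there than in Sham (adjusted p = 0.709, limma). Kcnh8 stood at -6.98, -6.57 and -6.93 on the Sham arrays, -9.70, -9.04 and -9.56 on the I/R arrays and -9.69, -9.22 and -8.27 on the DHI arrays. It was called lower without DHI 1 too, and with another background correction its difference was 0.05, not called. Kcnh5 differed by -1.85 ± 0.78 (SE, adjusted p = 0.709). It was above background on 2 of 3 DHI arrays, and without DHI 1 its difference was -0.85, not called. Of 21 alternatives, 12 ended its call. The median over the 85 genes was -0.43, and 63 of the 85 had a negative sign. Over all symbols the median was 0.0085, and 7665 of 15595 had a negative sign. Without DHI 1 the median of the channel genes was 0.06. Without DHI 2 the count of called genes rose from 4 to 15, and that of all called probes from 849 to 2573.

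Channel partners outside the family were also read. Of 13 tested partner subunits and anchors, 10 fell in I/R and 0 rose, with a median of -1.99, where 22.4% of all symbols were called in each direction. Abcc8, the sulphonylurea receptor that joins Kcnj11, fell by 2.60, while Abcc9 (-0.64), which joins Kcnj8, was not called. Dpp6 (-1.90) and Dpp10 (-2.27), which join Kcnd channels with Kcnip subunits, fell. Lgi1 (-2.37) and Adam22 (-2.42), which tie Kcna channels into axonal complexes, fell, and Cntn2 (-0.83), the adhesion molecule of the juxtaparanode, fell less. Dag1 (0.51), the dystroglycan of astrocyte endfeet, was not called. In DHI versus I/R, 9 of the 13 were called higher and 0 lower, where 10.8% of all symbols were higher and 12% were lower, and 0 passed with the adjusted p (limma). Without DHI 1, 11 were higher and 1 (Dag1) was lower, where 10773 of all 23806 probes were called, 58% of these higher. Hcn2, a channel of the pacemaker current that opposes potassium channels, fell in I/R (-1.36) and was called higher in DHI versus I/R (0.93, or 1.31 without DHI 1), though not with the adjusted p (limma).

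Of 11 genes for potassium pumps and cotransporters, 4 fell and 3 rose in I/R, where 22.4% of all symbols were called in each direction. Slc12a5 (-2.64), the neuronal exporter of potassium and chloride, and Atp1b1 (-1.44), a sodium pump beta subunit, were among those that fell. Those that rose were Slc12a7 (2.28), Slc12a4 (2.01), and Atp1b3 (1.14). Slc12a2 (0.22) was not called. In DHI versus I/R, Slc12a5 (1.62) and Atp1b1 (0.94) were among those called higher and Atp1b3 (-0.83) was called lower, with 0 past the adjusted p (limma). Without DHI 1, 4 of the 11 were higher and 3 were lower, where 10773 of all 23806 probes were called, 58% of these higher.

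Of the 25 channel genes with more than 1 tested probe, all probes had the same sign in I/R versus Sham in 23, and the same call in 18. The 2 with opposite signs were Kcna7 and Kcng1.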

How the data were processed

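Gene expression was measured with 9 one-color arrays (Agilent SurePrint G3 Rat), 3 each of Sham, I/R, and DHI, grouped by the labels. The authors deposited the intensity of each spot from Agilent Feature Extraction 10.7.1.1 (submitters' processing notes), which corrects each array for background and does not scale arrays to each other. They also deposited a table of log2 values, whose distribution is that of quantile-normalized intensities, used here as an alternative. Probe coordinates are rn4.

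Control spots and 392 to 725 outlier spots per array were removed, and repeat spots of 1 probe were averaged. Processed signals were put on a log2 scale, and each array's 75th percentile was subtracted. A probe was tested where every array of 1 group or more had it well above background (23747 of 30367). One model was fitted over 9 arrays (limma 3.58.1, R 4.3.3, 6 residual degrees of freedom, no replicate block). The thresholds are those of the study's methods, whose t-test was an alternative. All columns of sample values were mapped to a sample. The fit was tested on simulated data.

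The members, class, partner, and marker lists were chosen with earlier results of these data known. Values on every array are given for the glial, vascular, and epithelial channels and, among called members, for the 10 largest rises and falls in I/R versus Sham, the 5 largest in DHI versus I/R, and those called in DHI versus Sham. Promoters are from RefSeq (GRCr8). Gene names are those of the array design. Some channel and partner genes are counted but not reported by name here.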

Additional observations from a re-analysis of the deposited data

How the results depend on the processing

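The counts in I/R versus Sham stayed within 1.5 times their values under all 21 alternatives, at 5 to 9 genes higher and 39 to 60 lower. The counts in DHI versus I/R (35 higher, 4 lower) and DHI versus Sham (4 called) did not. Leaving out 1 array in turn gave 7 to 56 higher and 0 to 5 lower in DHI versus I/R, and 3 to 15 called in DHI versus Sham. Over all probes, those fits called 945 to 10773 in DHI versus I/R and 357 to 2573 in DHI versus Sham. With no scaling between arrays the channel counts were 11 higher and 7 lower in DHI versus I/R, and 7 called in DHI versus Sham. With array weights they were 60, 9, and 24, with the methods' t-test 3, 0, and 2, and with the adjusted p 0, 0, and 0. Over all 23747 probes, the main fit called 5211 in DHI versus I/R and 849 in DHI versus Sham. In the same order, array weights called 12217 and 4175, the t-test 469 and 448, and no scaling between arrays 7436 and 1688. Fitting only the 2 groups compared gave 14 higher in DHI versus I/R, and testing only probes well above background on all 9 arrays gave 2 called in DHI versus Sham. Over all probes, the former called 2125 of 23122 and the latter 647 of 21542 in those comparisons. With the replicate number as a block (replicate block), 46 were higher and 4 lower in DHI versus I/R and 8 were called in DHI versus Sham. Over all 23747 probes, that setting called 6313 in DHI versus I/R and 1280 in DHI versus Sham. The labels do not say whether the numbers pair the arrays. The deviations of same-numbered arrays from their group means correlated from -0.34 to 0.48, and 4 of 9 such pairs were above 0.1. These correlations cannot decide it, since the deviations of 3 arrays in a group sum to 0. The cause of these shifts was not tested.

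In DHI versus Sham, normexp background correction turned Kcnh8 to 0.0462. With no scaling between arrays, 1 gene was higher and 6 were lower, where 5.21% of the 1688 probes called were higher. In I/R versus Sham, Kcna7 lost its call under 12 of the 21 alternatives, and the mean of all probes turned it to -0.45, not called. Kcnk10 lost its call under 14, at 0.56 to 1.34 over all settings, and Kcnj10 under 3, with normexp (-0.40), without I/R 2 (-1.01), and with the adjusted p. The named genes called in DHI versus I/R each lost their call under 1 to 11 alternatives. Dim probes limit Kcnh5, Kcnh8, Kcnk9, Kcnj10, and the dimmer probes of Kcna7 and Kcnj5, where a bound replaces a measured change if a whole group was not well above background.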
